A study of Mus musculus with 9 samples.

Results

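Activator protein 1 (AP-1) is a family of transcription factors, and 8 of its genes were followed in whole mouse ovary: Fos, Fosb, Fosl1, Fosl2, Jun, Junb, Jund and Atf3. They were selected by symbol from a table of 33450 rows, of which 16935 had at least 1 FPKM in 1 or more groups. FPKM is a measure of transcript abundance: sequenced fragments scaled to transcript length and to the number of fragments mapped. All 8 genes had a row, and all 8 reached 1 FPKM. Fosb did so in HFLN and control and stayed under 1 FPKM in HFOB. For Fosl2, which had 2 rows, the row with the higher mean FPKM was used. The set was chosen with earlier results of these data known, so its levels and differences are descriptions without a test.

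The study profiled ovaries of 9 C57BL/6J mice aged 15 weeks that had been on their diets for 10 weeks. HFLN denotes 3 mice that stayed lean on a diet with 60% fat, HFOB denotes 3 mice that became obese on that same diet, and control denotes 3 mice on standard chow with 16% fat. Lean and obese mice were told apart by how they responded to the diet and were not assigned, and the labels give no stage of the oestrous cycle. The table holds 1 FPKM per group, made by the authors from the 3 animals, with a lower and an upper bound; the confidence level behind these was not given in the sources used here. Neither an SD nor a p-value is printed because single animals were not analysed here, and how many animals carry a difference is unknown. In a whole ovary, fewer cells of a type and less RNA per cell cannot be told apart.

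AP-1 proteins bind DNA as pairs held together by a leucine zipper. Jun proteins can pair with each other or with Fos proteins, while Fos proteins need a Jun or another basic leucine zipper (bZIP) protein as partner. Most of these genes are immediate-early genes: their transcripts appear soon after a hormone, growth factor or stress signal reaches the cell and are short-lived. In the ovary, AP-1 genes respond to gonadotropins in granulosa cells. In rat granulosa cells, the products of Fosl2 and Jund are known to persist as the cells turn into luteal cells.

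Most AP-1 genes stood lower in the ovaries of mice on the high-fat diet than in controls, and the size of the difference varied widely from member to member. Against control, 7 of the 8 were lower in HFLN and the same number in HFOB, with Fosl2 the exception in both. Of all rows considered, 49.9% were lower in HFLN than in control and 53.0% were lower in HFOB. The members' median log2 fold was -0.82 in HFLN and -0.66 in HFOB, beside medians of 0.00 and -0.01 over all rows. Folds were taken on log2(FPKM + 1), and the added 1 FPKM shrinks those of genes at low levels. Both comparisons use the same control value of each gene, so a control value that is high by chance would lower both folds.

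A call required a fold of 2 or more on that scale, together with a gap between the intervals deposited for the groups compared. Fosb was the 1 member called in HFLN against control, and 0.219% of the 16932 rows considered were called lower there. In HFOB against control Fosb was again the 1 member called, and 0.272% of 16929 rows were called lower. Full intervals that must not overlap make a strict rule. When a difference only had to exceed the root of the summed squared half-widths, with the fold minimum kept, 2 members were called lower in each comparison. They were Fosb and Junb in HFLN, where 0.408% of rows were called lower, and Fosb and Atf3 in HFOB, where 0.343% were. These shares set the members' counts beside the rest of the table and are not a test, since the rule that chose the members used the same values.

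**Figure D1:**
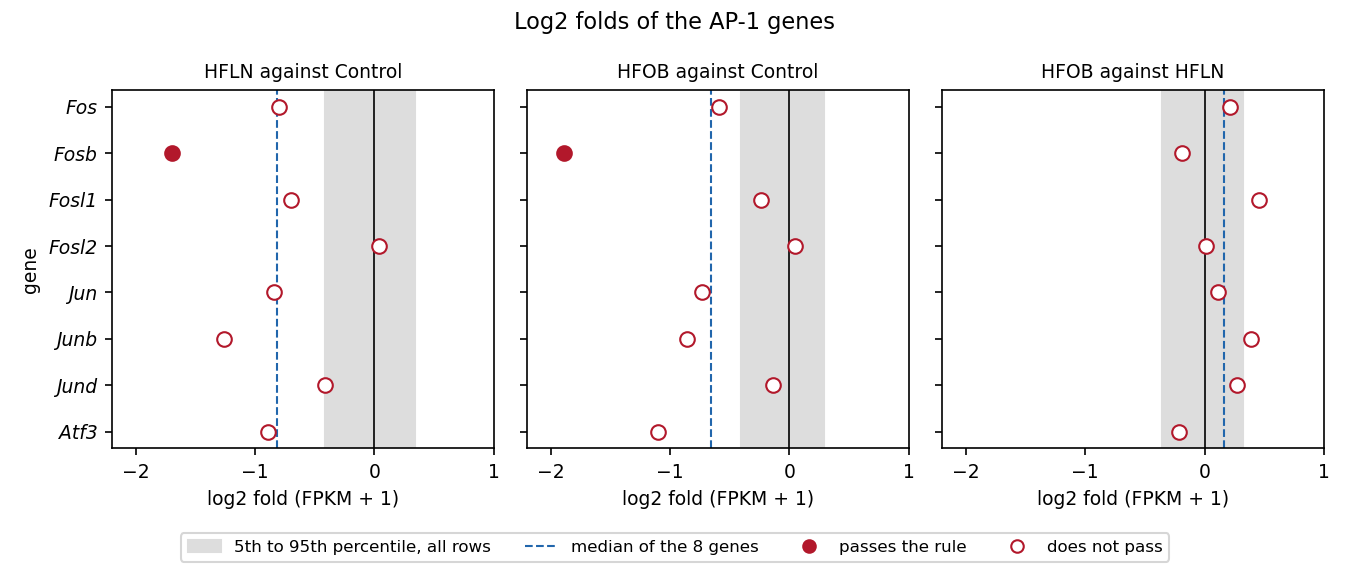
Log2 fold of each AP-1 gene on the log2(FPKM + 1) scale in HFLN against control, HFOB against control and HFOB against HFLN; filled points pass the rule, the grey band spans the 5th to 95th percentile of all rows considered and the dashed line is the median of the 8 genes. Fosb lies farthest to the left in both comparisons with control, at -1.70 and -1.89, and Fosl2 lies near 0 in all 3 comparisons.

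Promoter sequence is a feature that the choice of members did not use. RefSeq promoters (build GRCm38.p6) were found for 7 of the 8 members. Of these, 4 held the letters TGACG on either strand in the 250 bases before the gene start, namely Fos, Fosb, Junb and Atf3. TGACG is the half-site of the cyclic AMP response element (CRE), through which gonadotropin signals reach many genes, and it was picked as a motif after the sequences were seen. It occurred in 20.3% of 17492 protein-coding promoters in that window, and in 15.6% within the last 150 bases. All members' windows but that of Jund held more G and C than the median protein-coding promoter, at 55.2%. They ran from 58.4% in Fos to 68.8% in Fosb, with Jund at 47.6%. The shares given for motifs over all promoters were not matched for this. The 150 bases before each start are shown for those 4 genes and, for contrast, for Jun, which was also lower in both diet groups, and Fosl2, which was not. They run 5′ to 3′ on the strand of the gene, with the half-site on either strand in capitals.
Fosb, chr7:19310046-19310195, minus strand: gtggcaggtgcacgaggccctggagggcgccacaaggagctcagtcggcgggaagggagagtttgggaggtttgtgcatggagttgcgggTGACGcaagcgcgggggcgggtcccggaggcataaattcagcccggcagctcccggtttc
Junb, chr8:84978749-84978898, minus strand: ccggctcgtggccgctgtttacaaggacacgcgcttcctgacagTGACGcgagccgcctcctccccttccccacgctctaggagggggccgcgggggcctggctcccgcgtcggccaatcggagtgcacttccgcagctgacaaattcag
Atf3, chr1:191183334-191183483, minus strand: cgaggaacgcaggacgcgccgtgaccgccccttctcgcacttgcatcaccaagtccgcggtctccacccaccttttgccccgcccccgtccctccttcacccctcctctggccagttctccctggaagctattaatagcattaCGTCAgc
Fos, chr12:85473740-85473889, plus strand: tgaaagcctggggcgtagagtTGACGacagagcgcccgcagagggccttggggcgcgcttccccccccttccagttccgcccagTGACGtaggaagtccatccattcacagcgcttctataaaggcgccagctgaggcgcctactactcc
Jun, chr4:95052223-95052372, minus strand: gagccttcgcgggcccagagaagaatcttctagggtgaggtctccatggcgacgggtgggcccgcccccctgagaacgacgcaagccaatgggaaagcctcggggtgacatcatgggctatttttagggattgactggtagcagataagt
Fosl2, chr5:32136322-32136471, plus strand: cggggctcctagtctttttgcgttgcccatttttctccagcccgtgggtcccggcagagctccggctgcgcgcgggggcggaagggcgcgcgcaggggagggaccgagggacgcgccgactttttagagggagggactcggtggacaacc

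In Fosb the half-site lay 60 to 56 bases before the start, in Junb 106 to 102, and in Atf3 7 to 3, there as CGTCA on the gene's strand. Fos held it at 129 to 125 and again at 66 to 62. The windows of Jun, Fosl2 and Jund held no exact match to TGACG. For this and the other motifs near forms were not counted, such as the TGACATCA in the Jun stretch shown, which is close to the full CRE. The full CRE (TGACGTCA), present in 2.01% of promoters, was found in 0 of the 7 members' windows. The AP-1 site itself (TGAGTCA or TGACTCA, on either strand), present in 4.00%, and the CArG box of serum response factor, present in 1.39%, were also found in 0. Bases more than 250 before the start were not searched, so sites farther upstream would have been missed. GC boxes (GGGCGG, either strand, 42.7% of promoters) stood in 5 of the 7, with 5 matches in Atf3 and 3 in Fosb, some of them overlapping. A TATAAA on either strand (12.4% of promoters) stood in Fos alone, 33 to 28 bases before the start. The start used for Fosb, 19310045, is that of the measured row and lies inside the longer RefSeq span of the gene. For Jund the RefSeq span, 70697739 to 70700616, is longer than the 1668 bases of its single-exon transcript in the GENCODE M21 annotation. Whether Jund transcripts begin at the start used was not tested, so its lack of matches holds for that window only. The measured Fosl2 row begins at 32131895, upstream of the Fosl2 window shown, and holds 3 groups of start sites. The rows of Jun and Atf3 hold 2 groups each. A single promoter per gene was scanned, so the positions given depend on the start used. A match is a run of letters and not a measured binding site, and binding was not measured here.

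**Figure D2:**
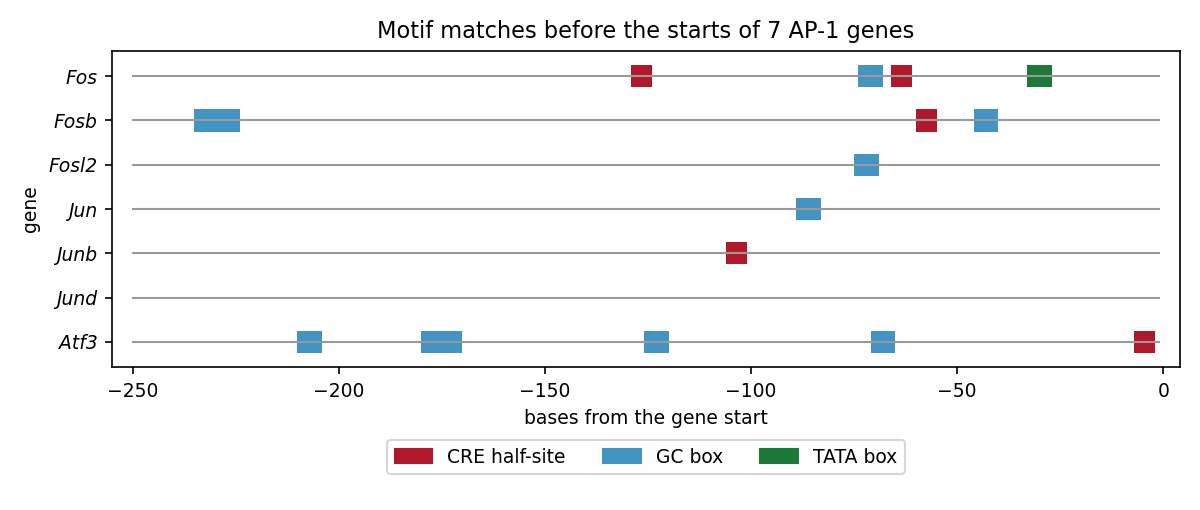
Positions of CRE half-sites, GC boxes and TATA boxes in the 250 bases before the starts of the 7 AP-1 genes with a RefSeq promoter, by distance in bases from the gene start. Red half-site blocks stand in Fos, Fosb, Junb and Atf3, and the window used for Jund has no block of any kind.

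Among the Fos proteins, Fosb differed most. Fosb (chromosome 7, 19302696 to 19310118, RefSeq annotation of GRCm38.p6) encodes a full-length activator and a shorter, more stable splice form, which the row does not separate. It stood at 1.08 FPKM in HFLN (deposited interval 0.268 to 1.89), 0.826 in HFOB (0.209 to 1.44) and 5.75 in control (2.38 to 9.12). Both diet groups lay below the control interval, by 0.487 FPKM in HFLN and 0.935 in HFOB at the nearest bounds. Fosb was thus 5.33-fold lower in HFLN and 6.96-fold lower in HFOB as plain ratios of FPKM. Its log2 fold ranked 69th from the bottom in HFLN and 34th in HFOB among all rows considered. Among protein-coding rows of at least 1 FPKM it stood at percentile 2.33 in HFLN, 1.20 in HFOB and 30.3 in control.

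Fos (chromosome 12, 85473890 to 85477274), the classical immediate-early partner of Jun, stood at 7.99 FPKM in HFLN (4.14 to 11.8), 9.38 in HFOB (5.00 to 13.8) and 14.6 in control (8.03 to 21.2). Its log2 folds against control were -0.80 in HFLN and -0.59 in HFOB, at percentiles 1.80 and 2.61 of all rows. Each diet group's interval overlapped that of control, so Fos did not pass. Fosl1 (chromosome 19, 5447698 to 5455938), which encodes Fra-1, a Fos protein without the strong activation domain of Fos, stood at 7.38 FPKM in HFLN (3.21 to 11.6), 10.5 in HFOB (5.49 to 15.5) and 12.6 in control (3.96 to 21.2). The control interval reached from below the HFLN value to well above the HFOB value. Its half-width was 68.5% of the value, the widest of any member in control. The neighbouring gene Ccdc85b lies within the span of that row and has a row of its own, at 4.45 FPKM in HFLN, 4.68 in HFOB and 4.65 in control. Whether reads of Ccdc85b enter the Fosl1 value was not tested.

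Fosl2 (chromosome 5, 32136472 to 32157840), which encodes Fra-2, was the most abundant Fos gene and stood at 67.1 FPKM in HFLN (41.3 to 92.8), 67.7 in HFOB (41.5 to 93.9) and 65.3 in control (40.4 to 90.1). The 3 intervals overlapped over almost their whole length. Its log2 folds of 0.04 in HFLN and 0.05 in HFOB lay at percentiles 59.1 and 67.2 of all rows. The other row of Fosl2 was at 0.984 FPKM in HFLN, 1.42 in HFOB and 1.68 in control, with all 3 lower bounds at 0.

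Of the Jun proteins, Junb had the widest difference and Jund the narrowest. Junb (chromosome 8, 84976909 to 84978748), an inducible and in many settings weaker activator than Jun, stood at 34.0 FPKM in HFLN (20.9 to 47.1), 45.0 in HFOB (28.5 to 61.5) and 82.5 in control (45.9 to 119). The HFLN and control intervals overlapped by 1.12 FPKM, which kept Junb from passing in spite of a log2 fold of -1.26. HFOB and control overlapped by 15.6 FPKM, at a log2 fold of -0.86. Jun (chromosome 4, 95049036 to 95052222), the founding member whose product is activated by the JNK kinases, stood at 62.3 FPKM in HFLN (41.3 to 83.3), 67.2 in HFOB (43.8 to 90.6) and 112 in control (69.7 to 154). Jun was 1.80-fold lower in HFLN and 1.67-fold lower in HFOB, with overlapping intervals. Jund (chromosome 8, 70697739 to 70700616), which is expressed in most cells without a stimulus, stood at 74.1 FPKM in HFLN (49.6 to 98.5), 89.4 in HFOB (59.4 to 119) and 98.8 in control (62.2 to 135). Its log2 folds were -0.41 in HFLN, at percentile 4.98 of all rows, and -0.14 in HFOB, at percentile 20.0.

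Atf3 (chromosome 1, 191170296 to 191183333), a stress-induced bZIP factor that represses as a pair with itself and can also join Jun proteins, stood at 6.91 FPKM in HFLN (3.23 to 10.6), 5.82 in HFOB (2.65 to 9.00) and 13.7 in control (6.82 to 20.5). In both diet groups the upper bound lay above the lower bound of control, by 3.77 FPKM in HFLN and 2.18 in HFOB. Atf3 was 1.98-fold lower in HFLN and 2.34-fold lower in HFOB, at log2 folds of -0.89 and -1.10. Over all members and groups the deposited half-width ran from 33.0% of the value, in Jund of HFLN, to 75.1%, in Fosb of HFLN.

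**Figure D3:**
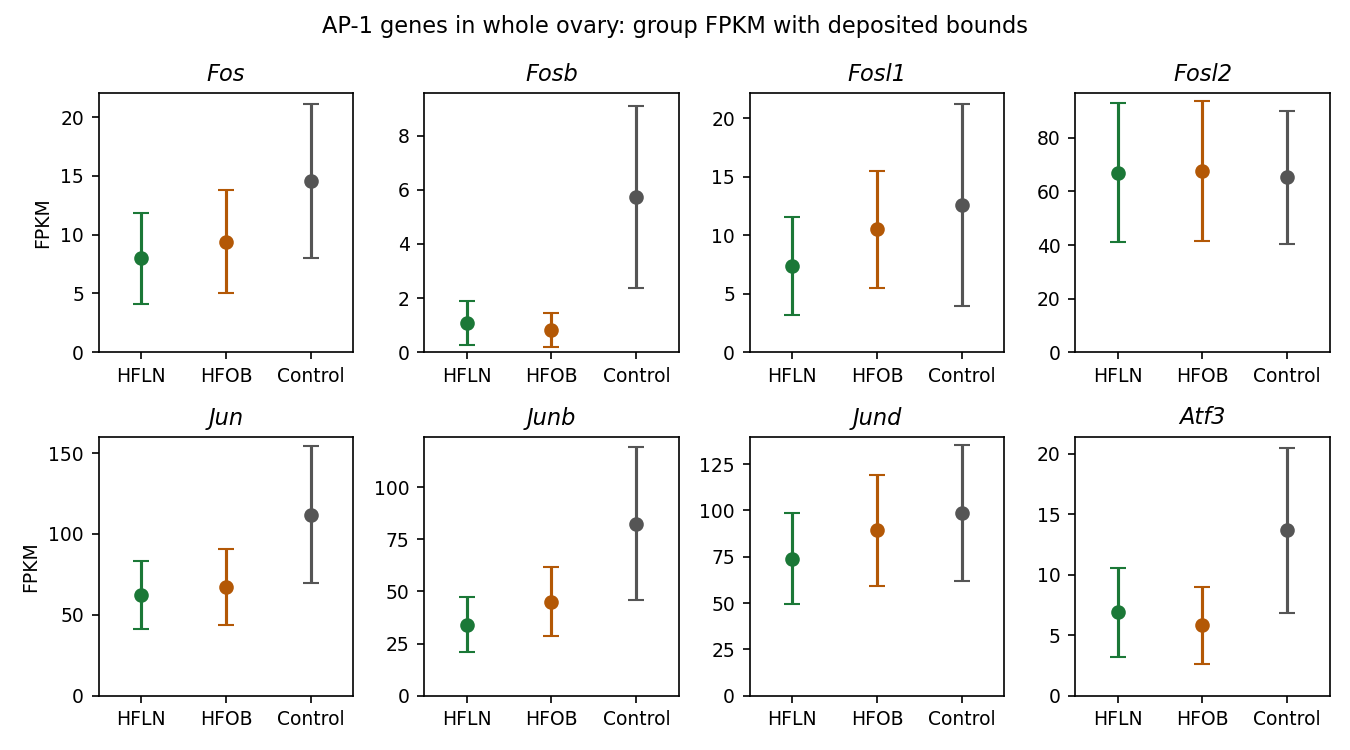
FPKM of each AP-1 gene in HFLN, HFOB and control; points are the deposited group values, bars the deposited lower and upper bounds, and every axis starts at 0. Only for Fosb do the bars of HFLN and HFOB end below the bar of control, which starts at 2.38 FPKM.

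Between obese and lean mice, both on the high-fat diet, the members differed less. In HFOB against HFLN, 6 of the 8 members were higher and 2 were lower. Their median log2 fold was 0.16, beside -0.01 over all rows. Of the members 0 were called, against 0.195% of 16931 rows in either direction. The highest log2 fold was that of Fosl1, at 0.46 and percentile 97.4 of all rows, with 10.5 FPKM in HFOB and 7.38 in HFLN. Junb followed at 0.39 and percentile 96.5, with 45.0 FPKM in HFOB and 34.0 in HFLN. Fosb and Atf3 were the 2 members lower in HFOB, at -0.19 and -0.21, percentiles 11.6 and 9.76. For all 8 members the intervals of HFOB and HFLN overlapped. When FPKM were rescaled to an equal sum over protein-coding rows, Jun and Fosl2 turned to -0.01 and -0.11 in this comparison and the median to 0.04.

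FPKM is scaled to transcript length, so the members can be set beside each other. In HFLN the order from high to low was Jund, Fosl2, Jun, Junb, Fos, Fosl1, Atf3 and Fosb. In HFOB it was Jund, Fosl2, Jun, Junb, Fosl1, Fos, Atf3 and Fosb. In control it was Jun, Jund, Junb, Fosl2, Fos, Atf3, Fosl1 and Fosb. Within the upper 4 genes of each group, and within the next 3, the intervals of neighbours in the order overlapped. Of all pairs inside these blocks, the intervals of Jund and Junb in HFLN alone lay apart, with Jund from 49.6 FPKM upwards and Junb up to 47.1. The intervals of the fourth and the fifth gene did not overlap in any of the 3 groups. Fosb stood apart from the gene above it in HFLN and HFOB, and its interval overlapped that gene's in control.

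Summed over the 8 genes, AP-1 stood at 261 FPKM in HFLN, 296 in HFOB and 405 in control. The Jun genes summed to 170 FPKM in HFLN, 202 in HFOB and 293 in control, and the Fos genes to 83.5, 88.4 and 98.2 in the same groups. The Jun sum was 2.04 times the Fos sum in HFLN, 2.28 times in HFOB and 2.99 times in control. Within the Fos genes Fosl2 made up 80.3% in HFLN, 76.6% in HFOB and 66.5% in control. Within the Jun genes Jund made up 43.5% in HFLN, 44.3% in HFOB and 33.7% in control, and Junb 19.9%, 22.3% and 28.1%. Together Fosl2 and Jund, the members least different between groups in FPKM ratio to control in HFLN, thus took a larger share of the family in the diet groups. With FPKM rescaled to an equal sum over protein-coding rows, the 8 genes summed to 303 FPKM in HFLN, 315 in HFOB and 405 in control.

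**Figure D4:**
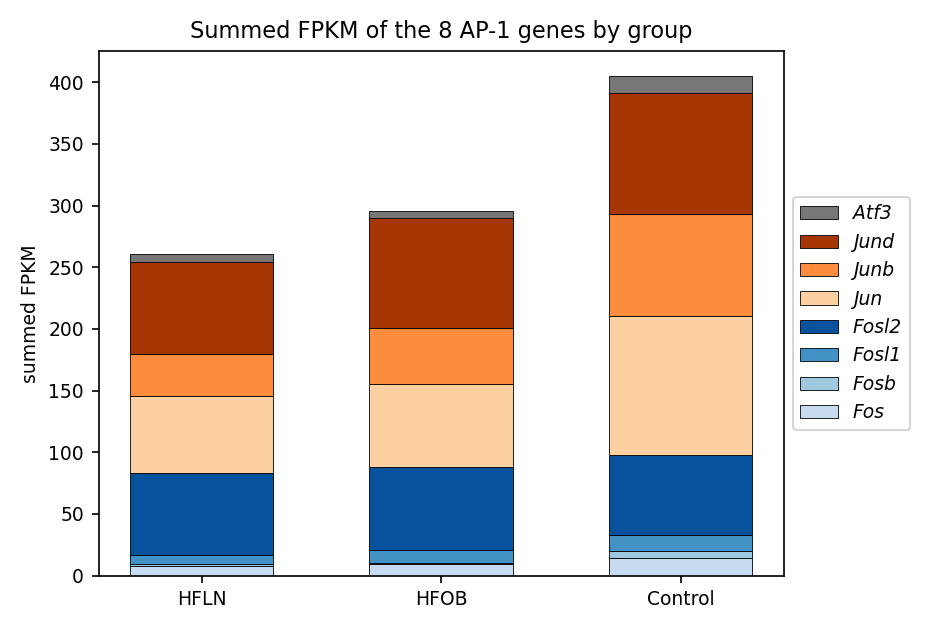
Summed FPKM of the 8 AP-1 genes in HFLN, HFOB and control, stacked by gene. The stacks reach 261, 296 and 405 FPKM, and the Fosl2 block is of nearly equal height in all 3 while the Jun and Junb blocks are tallest in control.

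Beyond promoters, features of the members' transcripts were read from the GENCODE M21 annotation, and not all were shared. Jun, Junb and Jund, 3 of the 8, have a single exon, as do 4.34% of 19127 protein-coding genes with at least 100 bases of 3′ untranslated region. The pentamer ATTTA, the core of AU-rich elements that speed mRNA decay, occurred in the 3′ untranslated region of all 8 and in that of 65.9% of these genes. It and its longer form were counted after the sequence tables had been seen. Per kilobase it ranged from 0.466 in Fosb to 4.91 in Fos, beside a median of 1.304 over these genes. The longer form TATTTAT occurred in 7 of the 8, with Junb the exception, and in 27.3% of these genes. Longer regions hold more matches by length alone: that of Fosl2 spans 4653 bases with 8 ATTTA, that of Junb 485 bases with 2.

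Genes that act with or on AP-1 were read from 4 lists, drawn up with earlier results of these data known. The list of kinases and factors upstream of AP-1 genes, which holds the MAP kinases, serum response factor and its partners, differed little. Of its 28 rows 17 were lower and 11 higher in HFLN, and 16 were lower and 12 higher in HFOB, with median log2 folds of -0.02 and 0.00 and 0 called. Map2k2, a kinase that activates ERK, stood at 68.0 FPKM in HFLN, 79.8 in HFOB and 84.7 in control. Rps6ka2, a kinase downstream of ERK, stood at 16.2, 14.9 and 19.6 FPKM in the same groups, and Rps6ka5, a nuclear kinase of chromatin and CREB, at 2.87, 2.98 and 2.48.

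The bZIP partners of Fos and Jun had median log2 folds of -0.09 in HFLN and -0.08 in HFOB over 18 rows of at least 1 FPKM. In HFLN 11 were lower and 7 higher, in HFOB 14 were lower and 4 higher, and 0 were called in either. Those with the widest differences were Maff, Ddit3 and Atf4. Maff, a small Maf protein without an activation domain, stood at 5.83 FPKM in HFLN (2.53 to 9.13), 5.20 in HFOB (2.21 to 8.20) and 11.3 in control (5.59 to 17.0). Ddit3, a stress-induced factor that forms pairs with other bZIP proteins, stood at 53.8 FPKM in HFLN, 55.5 in HFOB and 106 in control. Its control interval, 18.5 to 193 FPKM, enclosed both diet groups' values. Atf4, a main factor of the integrated stress response, stood at 171 FPKM in HFLN, 165 in HFOB and 236 in control.

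Of 14 genes for the turnover and co-regulation of AP-1, 10 were lower in HFLN and 9 in HFOB, with medians of -0.06 and -0.04 and 0 called. Zfp36, whose product binds AU-rich elements and hastens decay of early transcripts, was the one with a wide difference. It stood at 26.2 FPKM in HFLN (16.6 to 35.8), 26.6 in HFOB (16.9 to 36.4) and 52.8 in control (31.2 to 74.3), with overlapping intervals. Its relative Zfp36l2 stood at 33.1 FPKM in HFLN, 39.1 in HFOB and 36.1 in control, and Fbxw7, a ubiquitin ligase subunit that targets Jun, at 11.7, 10.8 and 12.6. With FPKM rescaled to an equal sum over protein-coding rows, the medians of the kinase, bZIP partner and turnover lists were 0.17, 0.11 and 0.14 in HFLN, so their direction turned with the scaling, while the members' median was -0.61.

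Textbook AP-1 target genes gave a lower median than the other 3 lists. Of 21 rows of at least 1 FPKM, 18 were lower and 3 higher in HFLN, and 20 were lower and 1 higher in HFOB. Their median log2 folds were -0.29 and -0.26. With FPKM rescaled to an equal sum over protein-coding rows, they were -0.15 in HFLN and -0.17 in HFOB. Sprr1a, Timp1 and Hmox1 were known to be low in these data when the list was drawn up, so its direction is not independent evidence. In each comparison 2 target genes were called lower, Sprr1a among them. Sprr1a, a small proline-rich protein, stood at 0.664 FPKM in HFLN (0 to 1.42), 0.0977 in HFOB (0 to 0.304) and 44.8 in control (18.0 to 71.5). The matrix protease inhibitor gene Timp1 was at 192 FPKM in HFLN (76.4 to 307), 163 in HFOB (63.4 to 262) and 597 in control (57.7 to 1135). Its control interval enclosed both diet groups' values, so it did not pass.

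**Figure D5:**
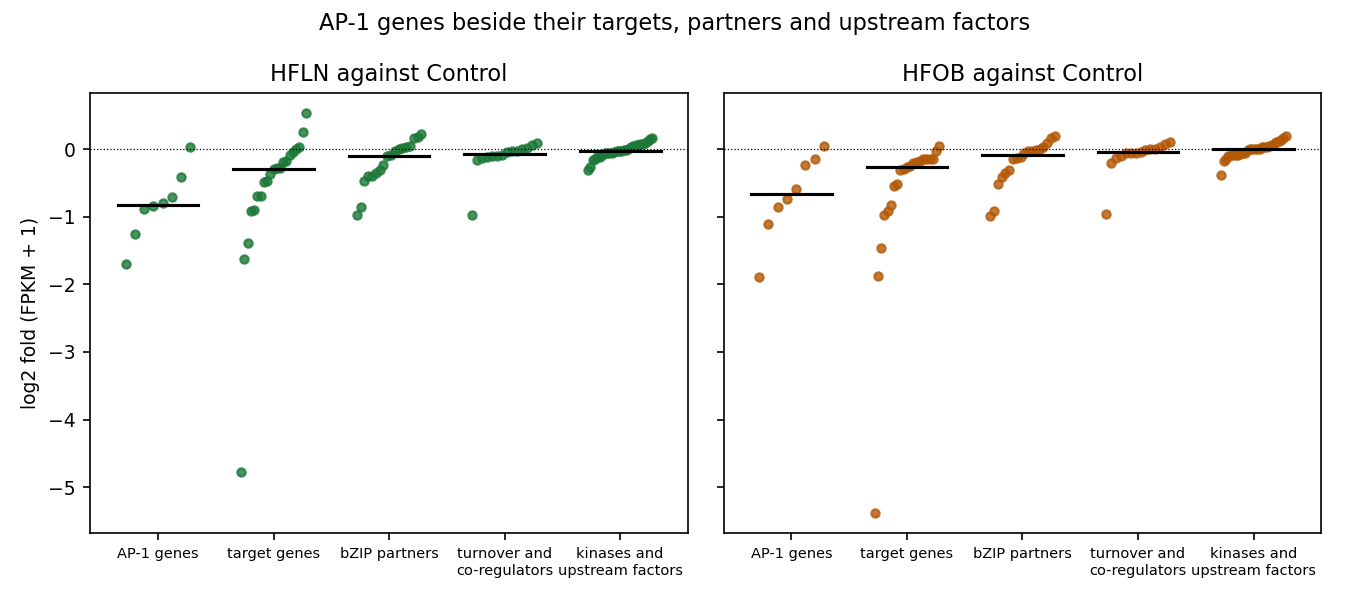
Log2 folds on the log2(FPKM + 1) scale of the AP-1 genes and of the 4 lists of related genes in HFLN and HFOB, each against control; each point is a row of at least 1 FPKM and black bars are medians. The medians of the AP-1 genes lie lowest, at -0.82 and -0.66, and those of the kinases and upstream factors lie at -0.02 and 0.00.

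The genes whose pair of folds against control lay nearest to the members' medians, among 9624 protein-coding genes outside the lists with at least 5 FPKM, were Tgfb1, H2az1, Ier2, Hspa1b and Gadd45a. Likeness was the distance in the plane of the 2 log2 folds, which rests on 3 group values a gene, and it ran from 0.0471 for Tgfb1 to 0.105 for Gadd45a. Tgfb1, a secreted growth factor, stood at 32.8 FPKM in HFLN, 36.6 in HFOB and 57.0 in control. Ier2, an immediate-early gene, stood at 39.8, 47.3 and 72.4 FPKM in the same groups. Hspa1b has a near-identical copy, so its value is uncertain. Nearest to single members were Srxn1 to Fosb, Klhl30 to Junb, Prrx2 to Atf3, Tgfb1 to Fos, H2az1 to Jun, Taf10 to Fosl1, Trappc4 to Jund and Ttc32 to Fosl2.

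Markers of ovarian and other cell types checked the tissue. Granulosa genes were lower than control in 7 of 7 rows in HFLN and 5 of 7 in HFOB, with 0 called. Their median log2 folds against control were -0.24 in HFLN and -0.23 in HFOB. They summed to 1829 FPKM in HFLN, 1929 in HFOB and 2221 in control, of which Inha alone made up 1360, 1465 and 1712. The control interval of Inha ran from 529 to 2895 FPKM. Oocyte genes summed to 194, 207 and 192 FPKM in HFLN, HFOB and control. Red blood cell genes were lower than control in 4 of 4 rows of at least 1 FPKM in HFLN and in HFOB, and summed to 138, 183 and 246 FPKM in HFLN, HFOB and control. Luteal genes were lower than control in 3 of 5 rows in HFLN and 5 of 5 in HFOB, with median log2 folds of -0.01 and -0.36. Their sums of 2401 FPKM in HFLN, 2678 in HFOB and 4325 in control rest largely on 2 rows. The row that Akr1c18 shares with Akr1c12 stood at 1084, 1496 and 2672 FPKM with lower bounds of 0. Sfrp4 stood at 1056, 975 and 1404 FPKM in the same groups. Genes listed for theca were lower than control in 4 of 4 rows in HFLN and 3 of 4 in HFOB. Of these, Ptch1 differed little, at 19.0 FPKM in HFLN and in control, and Insl3 shares its row with Jak3. The 4 rows summed to 3295, 3380 and 4034 FPKM in HFLN, HFOB and control. Cyp11a1 alone made up 3054, 3120 and 3608 FPKM of this, with lower bounds of 0. Macrophage genes summed to 464 FPKM in HFLN, 575 in HFOB and 484 in control. Of this, the row that Lyz2 shares with Lyz1 made up 236, 337 and 252 FPKM. The macrophage median log2 folds against control were -0.03 in HFLN and 0.05 in HFOB. Endothelial genes summed to 88.6, 83.4 and 91.3 FPKM in HFLN, HFOB and control. The 4 neutrophil genes were near 0, at sums of 3.70, 3.15 and 2.89 FPKM. Oviduct cilia genes were higher in 5 of 5 rows in HFLN and lower in 5 of 5 in HFOB, at sums of 141, 56.2 and 80.6 FPKM in HFLN, HFOB and control. Adipocyte genes were higher in 6 of 6 rows in HFOB than in HFLN, with a median log2 fold of 0.74 and sums of 203 FPKM in HFOB and 129 in HFLN, beside 131 in control. Lep, the leptin gene, was called higher in HFOB against HFLN and against control, at 2.101 FPKM in HFOB, 0.332 in HFLN and 0.223 in control. Smooth muscle genes were likewise higher in 5 of 5 rows in HFOB than in HFLN, with sums of 1305 FPKM in HFOB and 1139 in HFLN, beside 1293 in control. Surface epithelium genes were higher than control in 7 of 7 rows in HFLN and 2 of 7 in HFOB, and summed to 415, 334 and 346 FPKM in HFLN, HFOB and control. The part of red blood cell, theca, granulosa, luteal, adipocyte or other cell-type RNA in the AP-1 differences was not tested.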

How the data were processed

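RNA sequencing of whole ovary was summarised by the authors in 1 table of FPKM. The deposited FPKM and their lower and upper bounds come from stranded mRNA libraries, per the labels' protocols. Tools were Trimmomatic (0.32.3) and TopHat2 (2.1.0), with mm10 as build, then Cufflinks (2.2.1.0) and Cuffdiff (2.2.1.3), per the submitters' processing notes. Animals of a group were combined to 1 value, per the file headers. Annotation, library scaling and the strand option in counting were not given in the sources used here. Depth is unknown, and overlapping genes may share reads.

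Symbols were looked up in RefSeq (GRCm38.p6) for 36886 transcript identifiers, of which 99.2% were found. Folds are differences of log2(FPKM + 1). A row was considered if its status was OK in both groups compared and any group reached 1 FPKM. A row passed at a fold of at least 2 with deposited intervals that did not overlap. Group values allow no test.

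Named were all 8 members, per list the passing genes and the 3 with the largest mean size of both folds against control, and the nearest genes. A gene that met this rule is not reported here. Members and lists were chosen with earlier results of these data known. Other settings were another pseudocount, no filter on low values, a lower or no fold minimum, root-sum-square intervals, median centring, equal protein-coding sums and summed rows of a symbol. Python 3.11.15, pandas 2.3.3 and NumPy 2.4.6 were used.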

Additional observations from a re-analysis of the deposited data

How the results depend on the processing

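No paired analysis was possible because the table gives 1 value per group and none per animal; for the same reason no animal could be left out. Of 8 other settings, 4 change the folds themselves. Under these 4, the folds of Fosb against control kept their sign, and of 24 member folds 2 took both signs, those of Jun and Fosl2 in HFOB against HFLN. With a difference that had to exceed the root of the summed squared half-widths, 82 rows in place of 48 passed in HFLN against control, and 54 in place of 33 in HFOB against HFLN. Of the members 2 in place of 1 passed in HFLN against control and 2 in place of 1 in HFOB against control, since intervals add in full in the stricter rule. With a pseudocount of 0.1 FPKM the log2 fold of Fosb was -2.31 in HFLN and -2.66 in HFOB, in place of -1.70 and -1.89. An equal sum over protein-coding rows moved the median of all rows by 0.20 in HFLN against control and by -0.11 in HFOB against HFLN. The members' median against control was then -0.61 in HFLN and -0.57 in HFOB. In HFLN and HFOB against control the medians of the bZIP partners turned to 0.11 and 0.01, those of the turnover list to 0.14 and 0.05, and those of the kinases to 0.17 and 0.08, so the direction of these 3 lists depends on scaling. With depth and single animals unknown, differences inside the deposited intervals were not detectable here.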
